A study of Mus musculus with 6 samples.

Results

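A set of 10 genes of the WNT pathway was followed in mouse organoids of the esophagus and the stomach: the receptors *Lgr4*, *Lgr5* and *Lgr6*, and the feedback and target genes *Axin2*, *Sp5*, *Ascl2*, *Rnf43*, *Znrf3*, *Nkd1* and *Notum*. They were selected by name from the gene column of the arrays, and every non-control probe under these names was kept, which gave 15 probes for the 10 genes among 55681 probes under 34298 gene names. *Lgr5*, *Lgr6*, *Axin2*, *Ascl2* and *Nkd1* had 2 probes each and the other 5 genes had 1 probe each. Each of the 15 was printed once per array, and all had a value on all 6 arrays.

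Organoids are small epithelial structures grown from stem cells in a gel. Of the arrays, 3 held stomach and 3 held esophageal organoids at passage 0. The labels name mice 1, 2 and 4 for both tissues, so that n = 3 per tissue throughout and each array is 1 mouse. Harvest was on day 7 for the stomach culture of mouse 4 and on day 8 for the other 5 cultures. Stomach organoids were started from glands of the corpus and grown with WNT3A and R-spondin1 from conditioned medium and with gastrin, whereas esophageal organoids were grown from dissociated cells without these factors and with forskolin. EGF, noggin, FGF-10, a TGF-β receptor kinase inhibitor and a ROCK inhibitor were in both media. Tissue and medium therefore changed together, and their parts in a difference cannot be told apart. The labels mark all 6 cultures as controls and give no strain, age or genotype.

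WNT ligands bind Frizzled receptors and LRP5 or LRP6, which spares beta-catenin from destruction and lets it drive transcription with TCF and LEF factors. Frizzled receptors are removed from the membrane by the ubiquitin ligases RNF43 and ZNRF3. R-spondins, captured by the LGR receptors, clear these ligases from the surface and so raise the response to WNT. Beta-catenin in turn switches on genes that limit the pathway at many points, among them *Axin2* (a scaffold of the destruction complex), *Rnf43* and *Znrf3*, *Nkd1* (an antagonist of Dishevelled), *Notum* (an enzyme that removes the lipid from WNT ligands) and *Sp5* (a transcription factor). *Lgr5* and *Ascl2* mark and maintain stem cells of the intestine, and *Lgr5* also marks stem or reserve cells of stomach glands.

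The bases that stand for *Lgr5*, *Axin2* and *Ascl2* on the array are shown because each of these genes had 1 probe well above background on all stomach arrays and 1 that was not, the dimmer *Axin2* probe passing on 1 array and the other dimmer probes on none. The first 30 of the 60 bases of each probe, 5′ to 3′ in the direction of the transcript, were as follows.
*Lgr5*, brighter probe: catgtaaatacgtagtgcttgtaaatagat
*Lgr5*, dimmer probe: acctctagtgcttatatagaaacttgtgtg
*Axin2*, brighter probe: cttggtacaataattattgtaattaagaga
*Axin2*, dimmer probe: tcctgggggaacagattattattgctactc
*Ascl2*, brighter probe: ggccagtgtgggaaccctgctgttgcaaag
*Ascl2*, dimmer probe: tgtagccactgctcatgttcctggaaacac
The *Lgr5* probes lie at chr10:114887403-114887462 and chr10:114900686-114900745 (mm9, minus strand), 13223 bases apart. The brighter is assigned to NM_010195 and the dimmer to an Ensembl transcript. Both *Axin2* probes are assigned to NM_015732, at chr11:108812034-108812093 and chr11:108803927-108803986 (mm9, plus strand), 8047 bases apart. G and C made up 20% of the brighter and 48.3% of the dimmer *Axin2* probe. The *Ascl2* probes lie at chr7:150152734-150152793 for NM_008554 and chr7:150176638-150176697 for a predicted transcript (mm9, minus strand), with 23844 bases between them. No letters are in capitals here, since no part of a probe was singled out.

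Promoter sequences, from 250 bases before to 50 after the start of a gene, were in the RefSeq table of GRCm38.p6 for 7 of the 10 genes, 8 promoters in all (2 for *Rnf43*). *Lgr5*, *Znrf3* and *Notum* had no entry. They were searched on both strands for CTTTGAA and CTTTGAT, spellings of the core to which TCF and LEF factors are known to bind. Of all 32851 promoters in the table, 5.14% held CTTTGAA, 3.73% held CTTTGAT and 8.65% held either. One of the 8 promoters did, that of *Sp5*, with CTTTGAT starting 104 bases before the gene's start. It is printed because it holds the match and *Sp5* was among the called genes, and covers the 250 bases before the start at chr2:70474673-70474922 (GRCm38.p6, plus strand), with the match in capitals.
*Sp5*: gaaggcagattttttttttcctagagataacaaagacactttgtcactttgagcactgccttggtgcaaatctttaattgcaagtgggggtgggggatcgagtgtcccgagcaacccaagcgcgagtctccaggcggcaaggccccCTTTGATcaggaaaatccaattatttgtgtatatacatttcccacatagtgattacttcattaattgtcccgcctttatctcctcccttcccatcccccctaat
A match is a description of the letters and not a site of binding, and the windows of the other promoters say nothing beyond their 300 bases.

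Of the 10 genes, 6 (*Lgr4*, *Lgr5*, *Axin2*, *Sp5*, *Ascl2* and *Rnf43*) were higher in stomach organoids at adjusted p under 0.05 (limma, Benjamini-Hochberg over all 55681 probes). Over all gene names, 8.33% had a probe called higher in the stomach. By probes the count was 6 of 15, against 6.22% of all probes. No probe of the 10 genes was called higher in the esophagus, where 5.94% of all probes were called at the same threshold. At an unadjusted p under 0.05 (limma), the count in that direction was 0 as well. The share of all probes at that threshold was not computed, so this 0 has nothing to be set against. *Lgr6*, *Znrf3*, *Nkd1* and *Notum* were not called. The median log2 difference, esophagus minus stomach, was -0.42 over the 15 probes and 0.02 over all probes. Values are the authors' log2 intensities after background correction and quantile normalization, in which a difference of 1 is a doubling of intensity. In a bulk array, fewer cells that express a gene and less RNA per cell cannot be told apart.

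**Figure D1:**
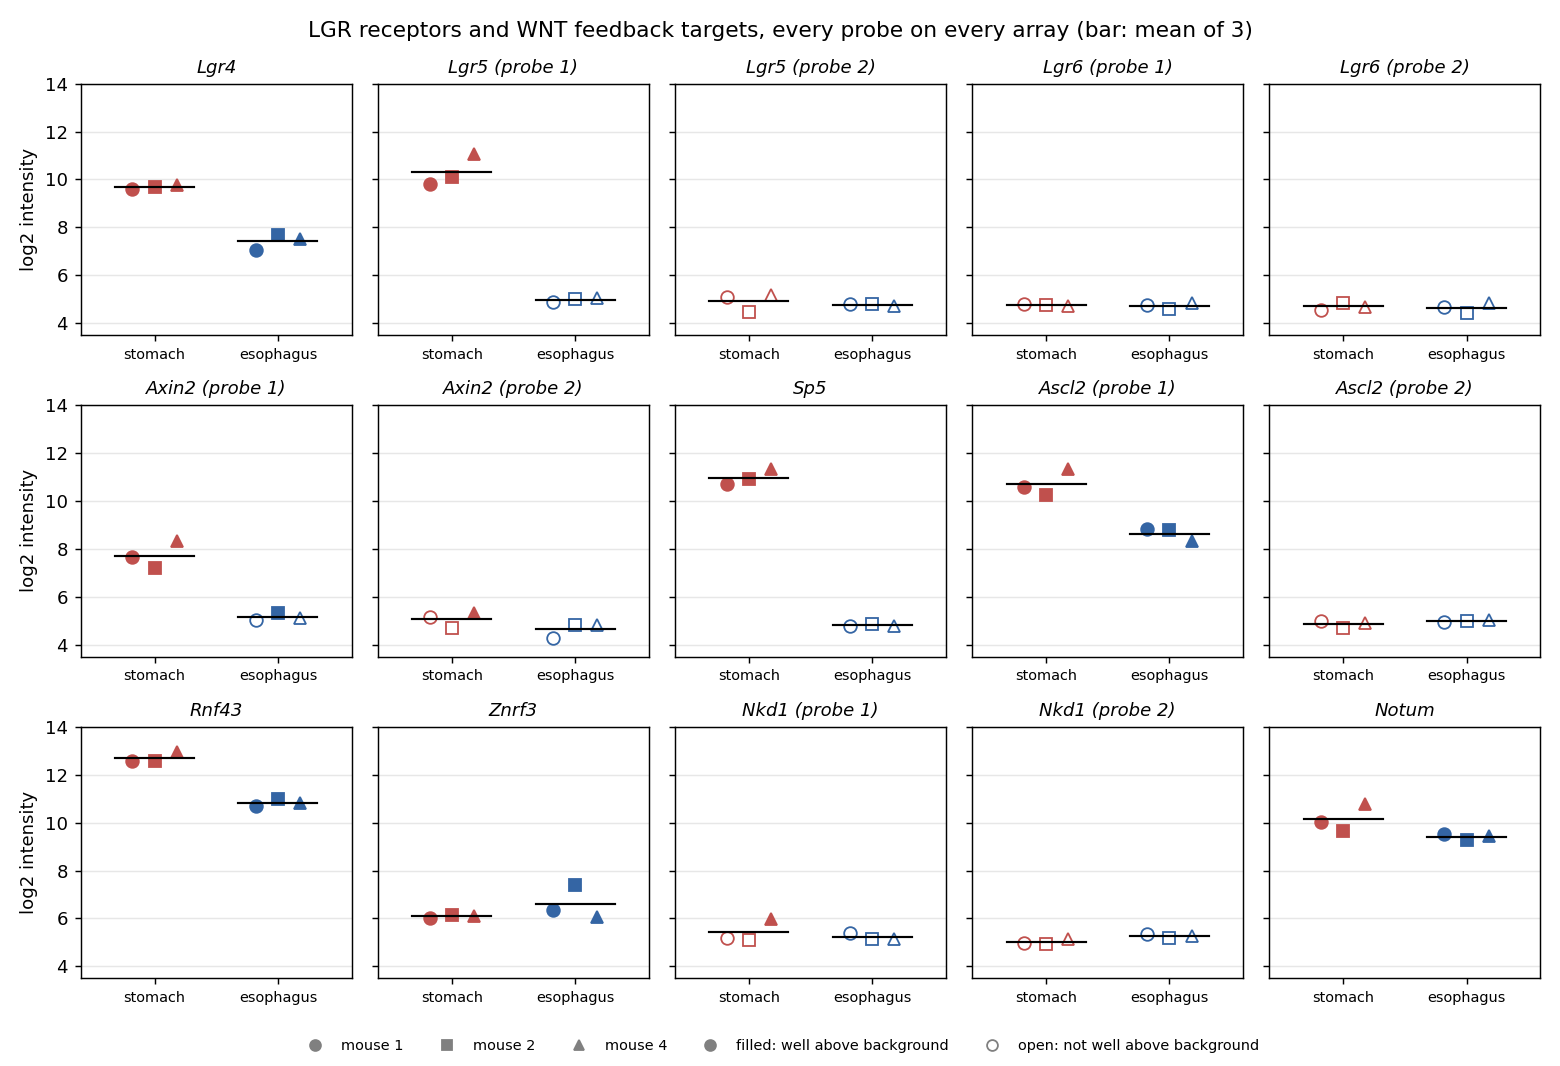
Log2 intensity (vertical axis) of the 15 probes on the 3 stomach and 3 esophagus arrays, with the mouse as the symbol, the mean of 3 as a bar and open symbols for arrays on which the probe was not well above background. *Sp5* and the brighter *Lgr5* probe lie between 9.79 and 11.34 in the stomach and at background in the esophagus, whereas both *Lgr6* probes lie at background on all arrays.

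Of the receptors of R-spondin, *Lgr4* and *Lgr5* were called and *Lgr6* was not. *Lgr4*, the widely expressed member of the family, was well above background on every array. Its log2 values were 9.61, 9.70 and 9.75 in the stomach organoids of mice 1, 2 and 4, and 7.04, 7.66 and 7.53 in their esophageal organoids. All stomach values lay above all esophagus values. The log2 difference was -2.28 (SE 0.19, limma adjusted p = 0.000167), 4.85-fold, and within each mouse it was -2.57, -2.04 and -2.22.

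*Lgr5*, the receptor known from stem cells, was 9.79, 10.12 and 11.06 in the stomach with its brighter probe and 4.88, 4.99 and 5.03 in the esophagus, in the order of mice 1, 2 and 4. No esophagus array was well above background. The values were far apart and the difference was -5.36 (SE 0.31, limma adjusted p = 2.04e-05). Because the esophagus gave no value above background, only a lower bound of the fold can be given. For it, each esophagus array was set to the higher of 2 values, that of the probe itself and the dimmest signal that still counted as well above background, and the stomach mean was divided by their mean. By this bound, stomach organoids had at least 38.6-fold more *Lgr5*, and the bound was 17.8-fold with normexp offset 50 on mean intensities and 105-fold with the processed signal scaled to the 75th percentile. Background-subtracted intensities before normalization were 826, 519 and 2828 units on the stomach arrays and 4.44, 3.40 and 3.42 units on the esophagus arrays. The dimmer *Lgr5* probe stayed at background on all arrays, with log2 values of 4.48 to 5.15 in the stomach and 4.71 to 4.80 in the esophagus. Its difference of -0.13 was within the spread (SE 0.20, limma adjusted p = 0.779).

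*Lgr6*, known from stem cells of skin and its appendages, was not well above background with either probe on any array of either tissue. Log2 values of its 2 probes ran from 4.56 to 4.85 in the stomach and from 4.42 to 4.83 in the esophagus, and overlapped. The differences were -0.01 (SE 0.14) and -0.05 (SE 0.17), with limma adjusted p = 0.967 and 0.90. No fold is given, since both tissues were at background.

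Changes of one receptor relative to another were compared within arrays, as the log2 ratio of their brighter probes. A ratio between different probes has no meaning as a level, and only its change between the tissues was compared. The ratio of *Lgr5* to *Lgr4* was 0.18, 0.42 and 1.31 in the stomach and -2.17, -2.67 and -2.50 in the esophagus of mice 1, 2 and 4. The fitted change was -3.08, and it was -2.29 with normexp offset 50 on mean intensities and -5.89 with the processed signal scaled to the 75th percentile. *Lgr5* in the esophagus was at background, so that the size is not measured and no test is given. The 2 ratios that include *Lgr6* are not read, since *Lgr6* was at background on all arrays and they only restate the changes of *Lgr4* and *Lgr5*.

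Among the targets, *Sp5* was well above background in the stomach alone. Its log2 values were 10.70, 10.90 and 11.34 in the stomach and 4.78, 4.85 and 4.77 in the esophagus of mice 1, 2 and 4. All stomach arrays were well above background and no esophagus array was. The difference was -6.18 (SE 0.19, limma adjusted p = 7.2e-07), and by the same bound the stomach held at least 64.6-fold more *Sp5*. With the same 2 alternatives this bound was 28.8-fold and 168-fold. In background-subtracted intensity, the stomach arrays gave 1538, 908 and 3487 units and the esophagus arrays 4.12, 3.36 and 3.45 units.

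*Axin2* gave log2 values of 7.65, 7.21 and 8.31 in the stomach and 5.04, 5.33 and 5.13 in the esophagus with its brighter probe. The tissues did not overlap, and among the esophagus arrays the probe was well above background in mouse 2 only. The difference was -2.56 (SE 0.27, limma adjusted p = 0.000639), and within mice 1, 2 and 4 it was -2.61, -1.88 and -3.18. Its size depended on the processing, from -1.78 with normexp offset 50 on mean intensities to -3.97 with the processed signal scaled to the 75th percentile, and the call held under both. The dimmer *Axin2* probe was well above background on the stomach array of mouse 4 alone. Its difference of -0.42 had the same sign and did not pass (SE 0.22, limma adjusted p = 0.318).

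*Ascl2*, a basic helix-loop-helix transcription factor, was measured on all 6 arrays with its brighter probe. The values were 10.59, 10.27 and 11.33 in the stomach and 8.81, 8.79 and 8.32 in the esophagus. The tissues did not overlap, although the esophagus was well above background on each array. The difference was -2.09 (SE 0.28, limma adjusted p = 0.0024), 4.25-fold, and ranged from -1.48 in mouse 2 to -3.01 in mouse 4. The dimmer *Ascl2* probe stayed at background everywhere, with a difference of 0.11 (SE 0.14, limma adjusted p = 0.719).

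Of the ubiquitin ligases, *Rnf43* was called and *Znrf3* was not. *Rnf43* was 12.59, 12.58 and 12.96 in the stomach and 10.71, 10.98 and 10.84 in the esophagus of mice 1, 2 and 4, with all 6 arrays well above background. The tissues did not overlap. The difference of -1.86 (SE 0.17, limma adjusted p = 0.000252), was 3.63-fold. Its paralog *Znrf3* was also well above background on all arrays, at 6.0, 6.14 and 6.08 in the stomach and 6.34, 7.41 and 6.07 in the esophagus. These values overlapped, and the esophagus array of mouse 2 stood above the other 5. The difference of 0.53 had the opposite sign to that of *Rnf43* and did not pass (SE 0.32, limma adjusted p = 0.396). Without that array it was 0.13, and without the esophagus array of mouse 4 it was 0.8. The log2 ratio of *Rnf43* to *Znrf3* was 6.58, 6.43 and 6.87 in the stomach and 4.37, 3.58 and 4.77 in the esophagus. Its change of -2.39 did not overlap between the tissues (exact two-sided permutation p = 0.1, the smallest that 3 against 3 arrays allow, and 0.1 after adjustment over the 4 ratios computed).

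The inhibitors *Notum* and *Nkd1* were not called. *Notum* was well above background on all arrays, at 10.02, 9.64 and 10.79 in the stomach and 9.51, 9.28 and 9.45 in the esophagus. The stomach values lay above the esophagus values, a pattern that 13.4% of all probes with 6 values share. The difference was -0.73 (SE 0.28) with a limma unadjusted p of 0.0325 and an adjusted p of 0.158. It was -0.51, -0.35 and -1.34 within mice 1, 2 and 4, so that mouse 4 contributed most. Without the stomach array of mouse 4 the difference was -0.41, a change under 1.5-fold, and without that of mouse 2 it was -0.99. The study's methods give a p under 0.05 with a 1.5-fold change, read here as an unadjusted p. At that threshold and with all arrays, *Notum* would join the called genes. This makes 7 of the 15 probes, against 8.85% of all probes in this direction.

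*Nkd1* was close to background. One of its probes was well above background on the stomach array of mouse 4 only, at 5.99 against 5.08 to 5.40 on the other 5 arrays, with a difference of -0.20 (SE 0.25, limma adjusted p = 0.708). The other stayed at background throughout and differed by 0.23 (SE 0.14, limma adjusted p = 0.384). Its esophagus values of 5.17 to 5.33 lay just above its stomach values of 4.92 to 5.13, all at background. The probes thus gave opposite signs, and neither passed the test.

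**Figure D2:**
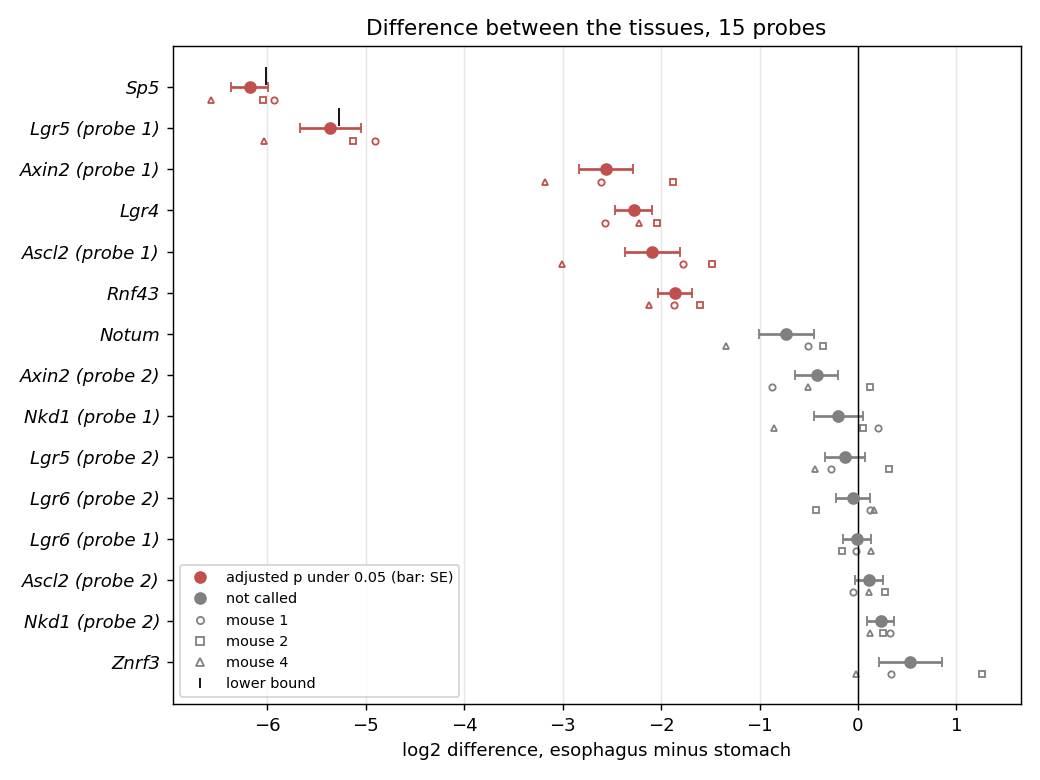
Log2 difference, esophagus minus stomach (horizontal axis), for the 15 probes in order of the fitted value, with the fitted value and its SE as a filled point and bar, the differences within mice 1, 2 and 4 as small open symbols and the lower bounds of *Sp5* and *Lgr5* as vertical ticks. The 6 probes called higher in the stomach run from -6.18 to -1.86 and keep their sign in every mouse, and the other 9 lie between -0.73 and 0.53.

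The 6 called genes fell into groups by what remained in the esophagus. *Lgr4*, *Ascl2* and *Rnf43* stayed well above background on all esophagus arrays and differed by 1.86 to 2.28 on the log2 scale. *Lgr5* and *Sp5* were not well above background on any of them, and *Axin2* on 1 of 3. *Sp5* and *Lgr5* have lower bounds only, so which of them differed more is not known. *Axin2* was close to the floor in the esophagus and takes no place in the order either. *Lgr4*, *Ascl2* and *Rnf43* lay 0.19 and 0.23 apart, against SEs of 0.17 to 0.28, so their order is not resolved.

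Within the stomach, most of the genes were highest in mouse 4. Of the 8 probes of these genes that were well above background on all stomach arrays, 7 were highest in mouse 4, the exception being *Znrf3*. Mouse 4 was the highest array for 43.4% of the 24429 probes on the arrays that were well above background in the same way. The median deviation of the 8 probes from their stomach mean was -0.12, -0.17 and 0.48 for mice 1, 2 and 4, and over the 24429 probes it was -0.01, -0.01 and 0.02. The deviation in mouse 4 was 0.74 for *Lgr5*, 0.64 for *Notum*, 0.60 for *Ascl2*, 0.59 for *Axin2*, 0.36 for *Sp5* and 0.25 for *Rnf43*, but 0.06 for *Lgr4* and 0.01 for *Znrf3*. Mice 1 and 2 had no common order, each being the lowest for 4 of the 8 probes. With 1 mouse at that value, this is a description of an array, and that array was also the one harvested on day 7.

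Gastric lineage markers differed on the same array in both directions. *Muc6*, a mucin of neck and deeper gland cells, was 7.39, 8.33 and 9.79 in mice 1, 2 and 4. *Pgc*, which encodes a pepsinogen of chief and neck cells, was 13.15, 13.94 and 14.66 with its brighter probe, and 10.76, 11.78 and 11.83 with the other, on which mouse 4 did not stand apart from mouse 2. *Muc5ac*, the mucin of surface pit cells, was 15.65, 15.03 and 13.26. *Gkn1*, *Gkn2* and *Tff2* were also lowest in mouse 4, at 8.79, 16.75 and 17.48. Of the *Tff1* probes, 1 was 17.88 in all 3 mice, although its intensities before normalization were 259188, 164425 and 272414. The other *Tff1* probe was 17.81, 17.81 and 17.73. The mean log2 value of all 9 probes of the 7 gastric markers was 14.14 to 14.26 on the 3 arrays. The part of day or lineage in the higher values of mouse 4 was not tested. Without this array the same 6 of the 10 genes were called.

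**Figure D3:**
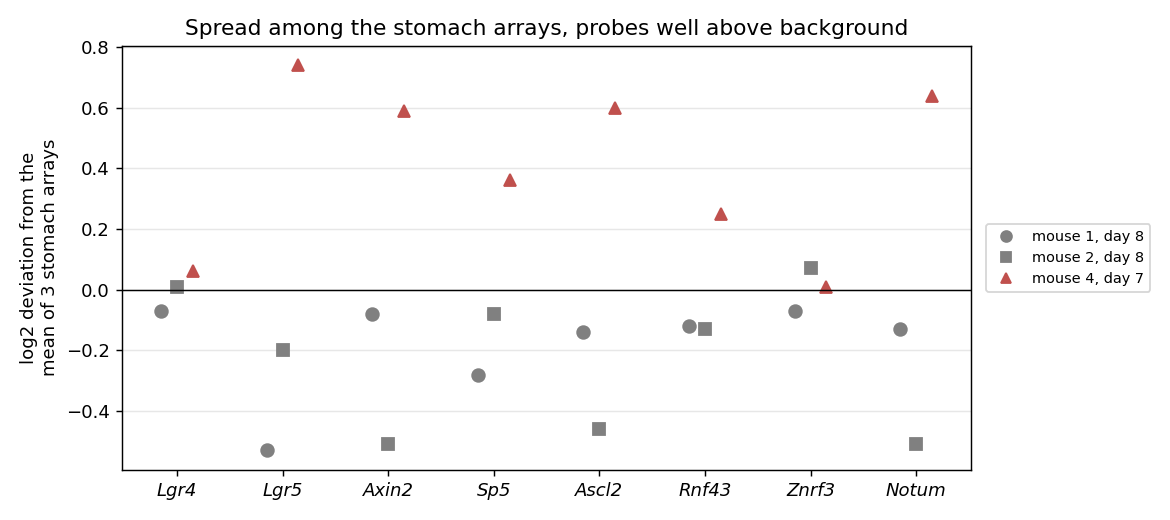
Deviation of each stomach array from the mean of the 3 stomach arrays (vertical axis, log2) for the 8 probes well above background on all of them. Mouse 4, harvested on day 7, is the highest for 7 of the 8 probes, by up to 0.74 for *Lgr5*, while *Lgr4* and *Znrf3* barely vary.

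Of 67 further pathway genes in 4 lists, 10 were called toward the stomach, 11 toward the esophagus and 46 in neither direction (limma, 1 probe or more). Without the stomach array of mouse 4 the count toward the esophagus was 17. At the study's threshold, read as an unadjusted p under 0.05 with a change of at least 1.5-fold, the count toward the stomach was 16. For the main fit, the shares over all gene names were 8.33% toward the stomach and 7.88% toward the esophagus. At the study's threshold, 8.85% of all probes were called toward the stomach. This is a share of probes, whereas the 16 are genes with 1 probe or more called. The share of gene names at that threshold was not computed. Over all probes, 6770 were called in either direction in the main fit and 7415 without the stomach array of mouse 4. Among 15 other WNT target genes, 3 were called toward the stomach and 2 toward the esophagus. *Sox9*, a transcription factor of progenitor cells, differed by -3.09 (SE 0.43, limma adjusted p = 0.00263), *Tnfrsf19*, a receptor also named Troy, by -2.14 (SE 0.40, adjusted p = 0.0113) and *Nkd2*, the paralog of *Nkd1*, by -1.63 (SE 0.18, adjusted p = 0.00071). *Nkd2* was 11.35, 11.00 and 10.84 in the stomach and 9.50, 9.28 and 9.52 in the esophagus, and was well above background on all 6 arrays. *Cd44*, an adhesion receptor, was higher in the esophagus by 1.67 with its most changed probe (SE 0.31, adjusted p = 0.0103), and *Apcdd1*, a membrane inhibitor of WNT, was at least 2.52-fold higher there. *Lef1*, *Dkk1*, *Bambi*, *Prox1* and *Wif1* were not well above background on any array. The median difference over the 22 probes of this list was -0.10.

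The receptors split by member. Of 18 R-spondins, Frizzleds, LRPs and Kremens, 4 were called toward the stomach and 5 toward the esophagus. Over all gene names the shares were 8.33% and 7.88%. *Fzd4* differed by -2.28 (SE 0.16, limma adjusted p = 5.51e-05), *Fzd5* by -1.58 (SE 0.22, adjusted p = 0.00283) and *Kremen2*, a co-receptor of the DKK inhibitors, by -2.75 (SE 0.21, adjusted p = 8.9e-05). In the esophagus *Kremen2* was 5.25, 5.9 and 5.92, and was not well above background in mouse 1. *Fzd10* was higher in the esophagus by 4.81 (SE 0.19, limma adjusted p = 2.26e-06), *Fzd2* by 2.37 (SE 0.26, adjusted p = 0.00077) and *Fzd1* by 1.78 (SE 0.26, adjusted p = 0.00335). *Fzd10* was 9.97, 9.60 and 9.75 in the esophagus and 5.24, 4.71 and 4.95 in the stomach, where 1 of 3 arrays was well above background. The paralogs *Kremen1* and *Kremen2* were called in opposite directions, *Kremen1* by 1.21 toward the esophagus (SE 0.20, limma adjusted p = 0.00611). None of *Rspo1*, *Rspo2*, *Rspo3* and *Rspo4*, the ligands of the LGR receptors, was well above background on any array. The median over the 23 probes was 0.26.

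The core of the pathway held few calls. Of 21 genes for the destruction complex, beta-catenin, Dishevelled and the TCF partners, 1 was called toward the stomach and 3 toward the esophagus. Over all gene names the shares were 8.33% and 7.88%, so counts this small say nothing particular about the core. *Tcf7l2*, which encodes a TCF that pairs with beta-catenin, differed by -1.05 with its called probe (SE 0.17, limma adjusted p = 0.00533). Its other probes differed by -1.11 (SE 0.31, limma adjusted p = 0.061) and -0.54 (SE 0.25, limma adjusted p = 0.242) and were not called. *Tcf7l1*, a mostly repressive TCF, differed by 1.70 (SE 0.18, adjusted p = 0.00058). *Csnk1a1*, a kinase of the destruction complex, differed by 1.18 (SE 0.19, adjusted p = 0.00573) and *Dvl2* by 0.96 (SE 0.15, adjusted p = 0.00461). The median over 35 probes was 0.06. Of 13 further stem cell genes, *Aqp5* (-9.78, SE 0.28, limma adjusted p = 5.57e-07) and *Bhlha15* (-3.56, SE 0.34, adjusted p = 0.000349) were higher in the stomach. *Hopx* was higher in the esophagus, by 4.44 (SE 0.59, limma adjusted p = 0.00215) with its more changed probe. *Olfm4* stayed at background on all arrays, and the median over 21 probes was 0.20.

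**Figure D4:**
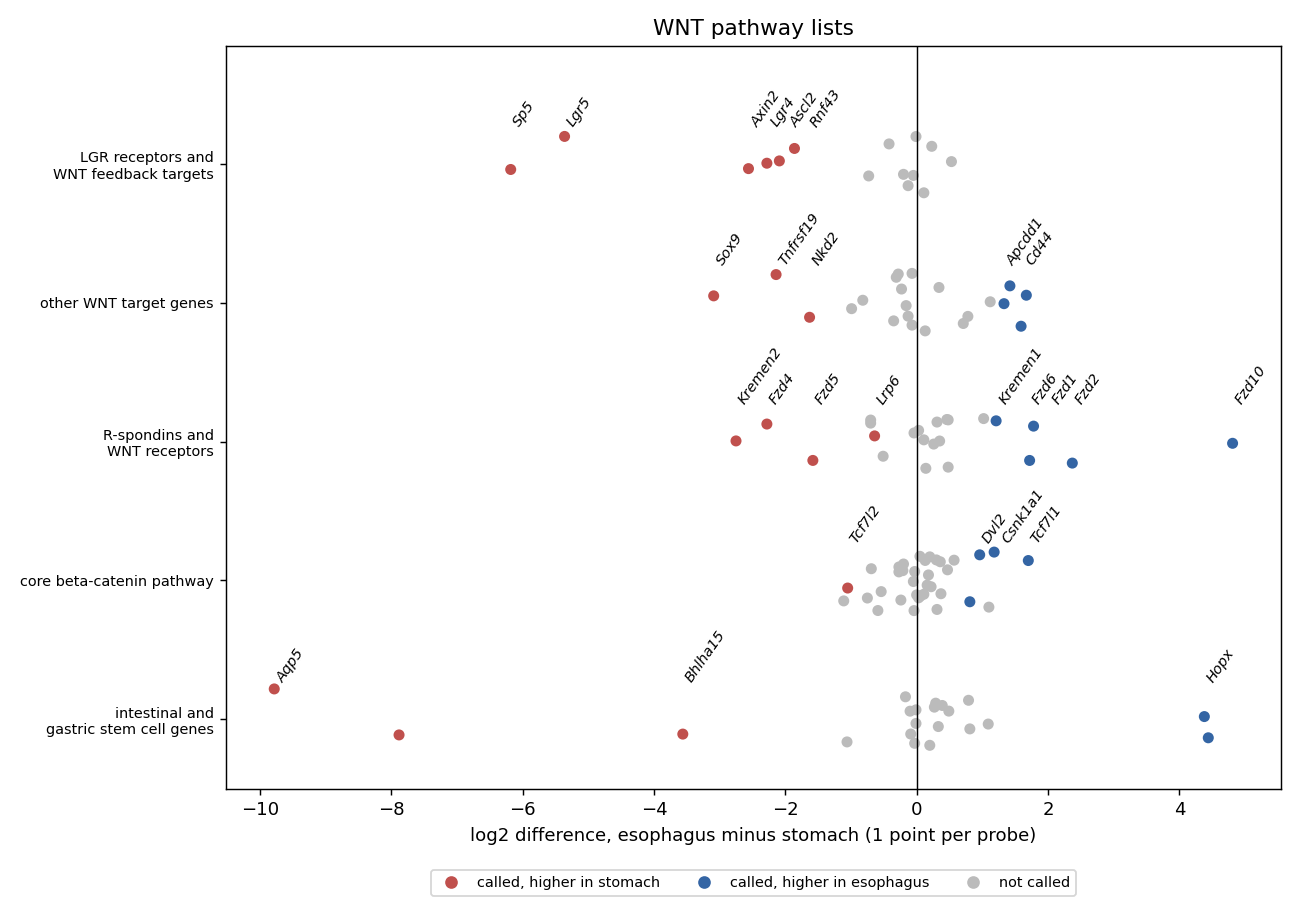
Log2 difference, esophagus minus stomach (horizontal axis), of every probe of the 10 genes and of 4 further pathway lists (rows), colored by limma call. Called genes are named. The 10 genes hold 6 calls toward the stomach and 0 toward the esophagus, where 7.88% of all gene names were called. The other 4 lists hold calls both ways. The rows differ in size, and the difference between them was not tested.

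The genes whose course over the 6 arrays was most like that of *Axin2* were found by the root mean square difference of log2 values, each probe centered on its own mean. The search covered 14956 named genes well above background on all stomach arrays, with no such demand on the esophagus, and the 5 nearest were *Gca* (0.109), *Sgk2* (0.147), *Arhgap6* (0.169), *Tmem30b* (0.18) and *Gatm* (0.185). Of these, *Tmem30b* alone was well above background in the esophagus, and *Axin2* itself was so on 1 of 3 arrays, so that for the other 4 the likeness there is a shared floor and no order among the 5 is read. *Gca*, which encodes a calcium-binding protein, was 7.59, 7.20 and 8.10 in the stomach and 4.84, 5.04 and 5.12 in the esophagus of mice 1, 2 and 4.

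The labels of the tissues held against their markers. All 7 squamous markers had a probe called higher in the esophagus, and all 4 columnar and 7 gastric markers were called higher in the stomach. The exception was 1 of 4 *Trp63* probes, which was called higher in the stomach. The mean log2 value of the squamous probes was 5.75 to 5.88 on the stomach arrays and 13.67 to 13.96 on the esophagus arrays, and that of the gastric probes was 4.94 to 5.10 on the esophagus arrays. Fibroblasts are a known source of R-spondins, and none of 10 fibroblast and smooth muscle markers was called. *Pdgfra*, *Pdgfrb*, *Postn*, *Des* and *Myh11* were at background on all arrays. *Col3a1* was well above background on 3 arrays and *Col1a1*, *Col1a2*, *Dcn* and *Acta2* on 1 each, *Acta2* at 6.69 in the esophagus of mouse 2. The mean log2 value of the 10 probes was 4.93 to 4.97 on the stomach arrays and 4.76 to 5.11 on the esophagus arrays. Of the 6 immune markers, *Itgam* was called higher in the stomach, with 1 of its 3 probes (-2.62, SE 0.28, limma adjusted p = 0.000662). Its other probes were at background on all arrays and differed by -0.02 and -0.06. Both *Cd68* probes went the other way, by 1.63 (SE 0.71) and 1.41 (SE 0.55), and were not called (limma adjusted p = 0.211 and 0.163). *Cd68*, *Cd3e* and 1 of 3 *Csf1r* probes were well above background on all 6 arrays, whereas *Ptprc*, which defines leukocytes, was at background on all of them. The mean log2 value of the 12 immune probes was 6.87 to 7.03 on the stomach arrays and 6.66 to 7.21 on the esophagus arrays, and the part of such cells in the results was not tested.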

How the data were processed

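Single-color Agilent arrays of 6 organoid cultures were read by the authors with Feature Extraction (version 11.5.1.1). The main values were the log2 values deposited by the authors, who had corrected them for background and quantile normalized them. They were rebuilt from the median intensities (normexp offset 15, quantile normalization) to a median absolute difference of 0.00433. Raw and background-subtracted intensities were those deposited in the scanner files. They gave the alternatives in background correction and scaling, with the bounds under these. The main bounds came from the deposited log2 values and the software's flags. Spots of a probe were averaged, and lmFit and eBayes of limma (3.58.1, R 4.3.3) compared the tissues without a block. A gene was called when 1 of its probes was. Exact permutation tests used scipy (1.17.1). The fit was tested on simulated data with known changes. The number of arrays limits the precision. The 10 genes and the pathway lists were chosen with earlier results of these data known. Named pathway genes were, by rule, the called genes with the largest change, up to 3 per list and direction, provided every array of 1 tissue measured them above background. *Kremen1*, the array values of *Nkd2* and *Fzd10* and the genes at background were added after their values were seen. Coordinates of probes are those of the files (mm9), and promoters are from RefSeq (GRCm38.p6), matched by symbol. The labels give the same mouse numbers for both tissues, which was read as the same animals, and so the numbers pair the arrays. After the tissue means were removed, arrays of the same mouse had r = 0.025, 0.012 and -0.008 over all probes, and arrays of different mice -0.073 to 0.04. On slide 1 lay 5 arrays and on the other the esophagus array of mouse 4, so that the slide as a block amounts to leaving that array out.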

Additional observations from a re-analysis of the deposited data

How the results depend on the processing

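The 6 genes called higher in the stomach, *Lgr4*, *Lgr5*, *Axin2*, *Sp5*, *Ascl2* and *Rnf43*, were called in all 13 refits, which changed the background correction, scaling, filter, variance model or block or left out 1 array. The mouse as a replicate block gave 6 of 15 probes and changed no call of the 10 genes. The study's threshold added *Notum* (7 genes). The *Lgr5* bound was 17.8-fold with an offset of 50 on mean intensities and 105-fold with 75th percentile scaling, and the *Sp5* bound 28.8-fold and 168-fold. That scaling moved the median of all probes to 0.19. At the study's threshold, the other pathway genes numbered 16 toward the stomach, where 8.85% of all probes, not genes, were called. Toward the esophagus they numbered 15, and no share over all probes was computed in that direction. Over the arrays left out, they numbered 9 to 11 toward the stomach and 9 to 17 toward the esophagus. The highest count was that without stomach replicate 4. *Lgr6*, at background, changed sign, to 0.03 and 0.07 with mean intensities and an offset of 16, 0.01 and 0.03 with mean intensities and an offset of 50 and 0.08 and 0.23 with percentile scaling. Over the arrays left out, its probes ran from -0.07 to 0.05 and -0.15 to 0.06, and 1 *Nkd1* probe from -0.37 to 0.08. The cause was not tested. The filter on dim probes left no value for *Lgr6*, *Nkd1* and the dimmer probes of *Lgr5*, *Axin2* and *Ascl2*. Signal over background limits what can be said of *Lgr6*, not detectable on any array, and of *Nkd1*, detectable on 1 array only. Neither was shown to be absent, and a probe that was not called may still differ.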
